A study of Mus musculus with 12 samples.

Results

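The genes described here are the 8 members of the transforming growth factor beta (TGF-beta) pathway on a NanoString mouse immunology panel, an assay that counts fluorescent barcodes, each tied to the probe of 1 gene, without amplification. They were chosen by name, through the RefSeq accession of each probe: the ligand genes Tgfb1, Tgfb2 and Tgfb3, the receptor genes Tgfbr1 and Tgfbr2, the signal mediators Smad3 and Smad5, and Tgfbi. All 8 of 8 were found among 561 gene probes, and all 8 passed the filter on low values that left 451 genes tested. They were listed with the values of the 12 libraries by group already known, so every group difference below describes these libraries, and no p-value printed for a member is independent evidence.

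RNA came from the skin of 12 female mice, 4 in each of 3 groups. All 12 had received OT2 cells, CD4 T cells specific for an ovalbumin peptide, cultured for 10 days towards a T helper 2 state. Skin was frozen when disease first showed, about 3 to 4 weeks later, from lesions in diseased mice and from similar sites in littermates. No source used here states the age of the mice.

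The 4 CLE mice (a model of cutaneous lupus erythematosus) were of the parental strain, carried rtTA and K5TGO and could express the autoantigen, kept their Merkel cells and were TLR9 ko/ko. The 4 Merkel het CLE mice carried rtTA and K5TGO with Atoh1flox/wt K14Cre+, a genotype labelled as a partial loss of Merkel cells. K14Cre acts in keratin 14-expressing epithelium. Merkel het CLE 1 and 2 were TLR9 wt/wt, and 3 and 4 were TLR9 ko/ko. The 4 littermates lacked rtTA, K5TGO or both and so could not express the autoantigen. Littermate 1 was rtTA- K5TGO-, TLR9 ko/wt and Atoh1flox/flox K14Cre-. Littermate 2 was rtTA- K5TGO+, TLR9 ko/ko and Atoh1wt/wt K14Cre-. Littermate 3 was rtTA- K5TGO+, TLR9 ko/ko and Atoh1flox/wt K14Cre+, labelled as having lost part of its Merkel cells. Littermate 4 was rtTA+ K5TGO-, TLR9 ko/ko and Atoh1flox/flox K14Cre+, labelled as having lost all of them. The series design text gives all groups as TLR9 knockouts and the Merkel group as having lost its Merkel cells, unlike the labels of single mice, which are followed here. Skin disease scores were 0 in the littermates, 2.5, 1, 1 and 3 in CLE 1 to 4, and 3, 2, 2 and 2.5 in Merkel het CLE 1 to 4.

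TGF-beta ligands are secreted in a latent form and, once activated, bind a type II receptor (Tgfbr2) that phosphorylates a type I receptor (Tgfbr1). The type I receptor then phosphorylates Smad2 and Smad3, which enter the nucleus with Smad4. Smad5 serves the related bone morphogenetic protein receptors. In skin the pathway restrains keratinocyte growth, drives matrix production by fibroblasts, keeps Langerhans cells in the epidermis and shapes T cell and macrophage responses. Tgfbi encodes an extracellular matrix adhesion protein named for its induction by TGF-beta.

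Values are the deposited signal, barcode counts multiplied by 1 factor per lane, in units. Between 99297 and 682043 gene counts stood behind a library. Littermate 2 and CLE 1 had the fewest counts and the largest factors, 4.04 and 5.56, so the level a gene had to exceed to count as above background was 116 and 106 units there, against 17.6 to 53.2 units in the other 10. The epithelial list had 4 of its 9 markers on the panel, each above background in at least 1 library, and their summed signal ran from 5656 to 12355 units over the 12 libraries. These were Cd9, Tslp, Defb1 and Muc1, none of which is specific to skin epithelium. Keratin genes and markers of Merkel cells were not analysed here.

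Tgfb2 and Smad3 were the members that lay lower in every diseased mouse than in every littermate. Tgfb1 was higher on average in diseased skin but overlapped, with CLE 3 within the littermate range. The 250 bases before the annotated start of these 3 genes (RefSeq, GRCm38.p6) are shown, a choice made after their values were seen. Of their differences from littermates, only that of Tgfb2 in Merkel het CLE passed the threshold used below. Each runs 5′ to 3′ on the gene's strand. Tgfb2 lies at chr1:186705990-186706239 on the minus strand, Smad3 at chr9:63757995-63758244 on the minus strand and Tgfb1 at chr7:25686752-25687001 on the plus strand. Capitals mark the Smad-binding core CAGAC or its reverse complement GTCTG.
Tgfb2: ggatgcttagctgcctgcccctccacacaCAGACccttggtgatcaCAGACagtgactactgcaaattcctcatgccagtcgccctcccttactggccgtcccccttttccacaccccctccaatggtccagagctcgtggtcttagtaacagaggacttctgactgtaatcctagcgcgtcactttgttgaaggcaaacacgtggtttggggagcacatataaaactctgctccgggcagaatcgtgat
Smad3: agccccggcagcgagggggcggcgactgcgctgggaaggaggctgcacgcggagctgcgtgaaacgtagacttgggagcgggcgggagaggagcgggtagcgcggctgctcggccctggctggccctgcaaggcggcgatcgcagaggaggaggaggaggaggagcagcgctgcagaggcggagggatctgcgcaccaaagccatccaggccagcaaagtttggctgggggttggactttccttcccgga
Tgfb1: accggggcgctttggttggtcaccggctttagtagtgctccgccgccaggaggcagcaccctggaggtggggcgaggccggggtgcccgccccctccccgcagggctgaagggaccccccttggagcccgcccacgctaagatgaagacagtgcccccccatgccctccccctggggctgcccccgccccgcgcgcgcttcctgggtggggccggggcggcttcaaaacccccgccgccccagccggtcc
The Tgfb2 window held 2 copies of the core and the Smad3 and Tgfb1 windows 0. Of 32851 promoter windows of this length, 42.2% held at least 1 copy on either strand. The AP-1 site TGANTCA, in 6.75% of these windows, had 0 matches in all 3. The share of G and C was 53.6% in the Tgfb2 window, 69.2% in that of Smad3 and 75.2% in that of Tgfb1. Of 8 members, 7 had an entry, and Tgfb3 did not. Of the others, Tgfbi had 2 copies of the core and Tgfbr2 had 1. Tgfbr1 had 0 and 1 in its 2 windows, and Smad5 had 0, 0 and 1 in its 3. These matches are letters in a window and were not tested as binding sites.

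**Figure D1:**
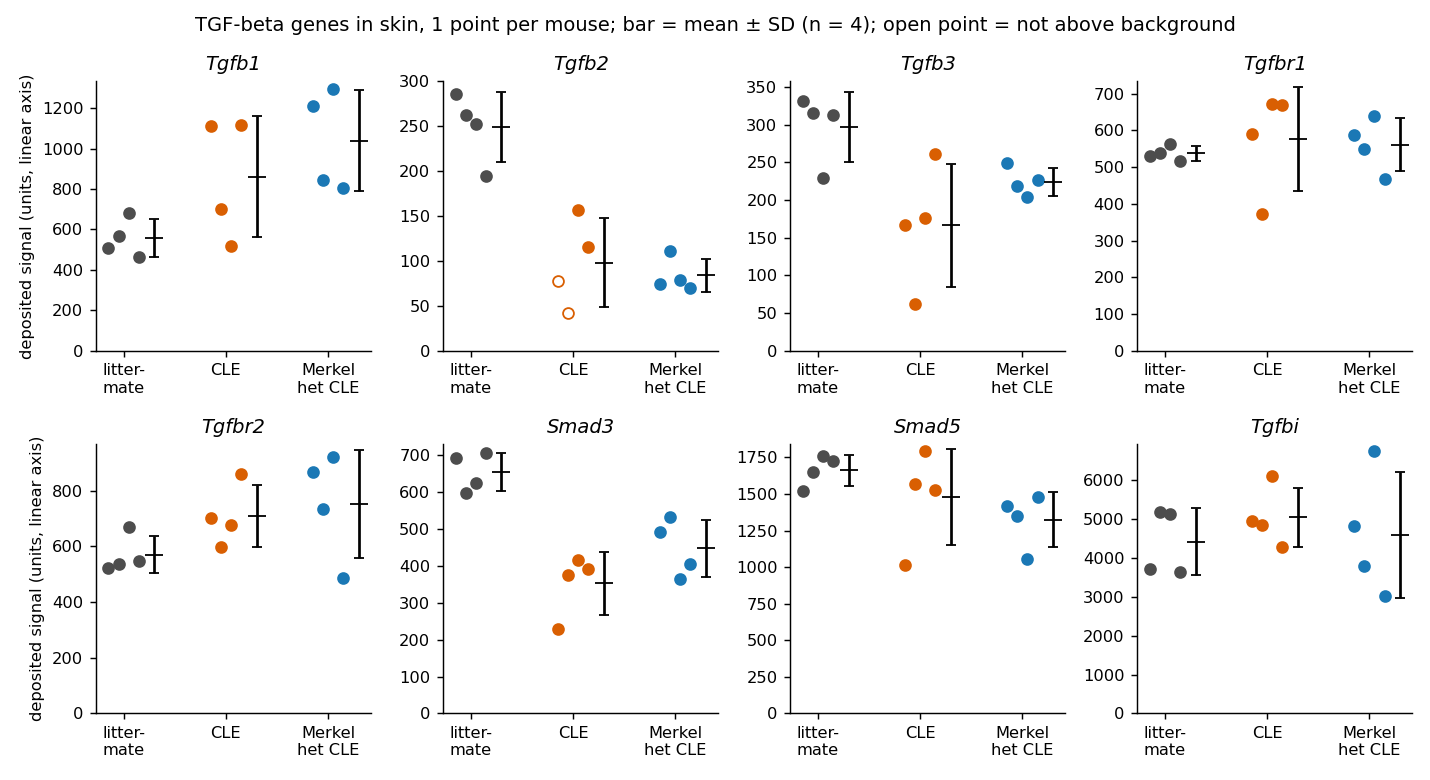
Deposited signal (units, linear axes from 0) of the 8 TGF-beta genes in the skin of 4 littermate, 4 CLE and 4 Merkel het CLE mice. Each point is 1 mouse in replicate order, open points were not above that library's background threshold, and bars are the mean ± SD (n = 4). The 8 diseased mice lie below the 4 littermates for Tgfb2 (highest 156 against lowest 195 units) and for Smad3 (533 against 598 units), while Tgfbr1 and Tgfbi overlap in all groups.

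Among the ligands, Tgfb2 had the lowest values in diseased skin relative to littermates. TGF-beta2 is best known for its part in embryonic development and epithelial-mesenchymal signalling. Tgfb2 read 286, 263, 253 and 195 units in littermates 1 to 4. It read 77.9, 42.0, 156 and 116 units in CLE 1 to 4, and 74.4, 111.6, 79.1 and 70.4 units in Merkel het CLE 1 to 4. All 8 diseased mice lay below all 4 littermates, a separation in this direction that 3.1% of the 451 tested genes also had. CLE 1 and 2 were below their background thresholds with 14 and 17 barcode counts, so their values are no more than an upper level, while the other 10 libraries were above theirs. The 4 Merkel het CLE values were 3.27 to 3.99 times their thresholds and rested on 77 to 114 counts.

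On the log2(value + 1) scale, the Tgfb2 difference was -1.48 ± 0.38 (SE, n = 4 per group) between CLE and littermates, 2.79-fold lower, with a 95% interval of -2.30 to -0.66. In Merkel het CLE skin Tgfb2 fell by 1.57 ± 0.38 on this scale relative to littermates, 2.97-fold, with an interval of -2.39 to -0.75. The limma adjusted p, over all 451 genes, was 0.111 and 0.0261. Each of these comparisons uses the same 4 littermates, so they are not independent of each other. The second call was lost without any 1 littermate, or without Merkel het CLE 1, 3 or 4 (adjusted p from 0.0575 to 0.0928), and was kept without Merkel het CLE 2 or any 1 CLE mouse. It was also lost after background subtraction (adjusted p = 0.132), among TLR9 ko/ko mice alone (0.213), without the littermates carrying K14Cre (0.156) and without littermate 2 and CLE 1 (0.0517), with differences from -1.72 to -1.54. In the first comparison the difference without CLE 3 was -1.75, with an adjusted p of 0.00745, and it also passed with quantile normalization (0.0477) and array weights (0.0152). After background subtraction it was -2.36, with an adjusted p of 0.0807.

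Tgfb1 encodes the most abundant TGF-beta of immune cells. Its values were 510, 570, 684 and 466 units in littermates 1 to 4, 1112, 701, 517 and 1117 units in CLE 1 to 4, and 1213, 846, 1293 and 808 units in Merkel het CLE 1 to 4. Every Merkel het CLE mouse lay above every littermate, and so did CLE 1, 2 and 4, whereas CLE 3, with a disease score of 1, lay within the littermate range. The log2 difference from littermates was 0.57 ± 0.28 in CLE (SE, n = 4 per group) and 0.88 ± 0.28 in Merkel het CLE, or 1.48-fold and 1.84-fold. Neither passed, with limma adjusted p of 0.209 and 0.0596. Without CLE 3 the difference between CLE and littermates was 0.79 and the adjusted p 0.038. With each library centred on the median of its tested genes, a step that lowers every difference from littermates by 0.47 in CLE and 0.34 in Merkel het CLE, the Tgfb1 values were 0.10 and 0.54. The Merkel het CLE value passed with quantile normalization (adjusted p = 0.0334), array weights (0.00338), only these 2 groups in the fit (0.0153), and without CLE 1, 3 or 4 (0.0257 to 0.0493). Over all alternatives its adjusted p ran from 0.00338 to 0.336, the highest among TLR9 ko/ko mice.

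Tgfb3 encodes the third isoform, known for its part in palate closure and in scarring. It read 332, 315, 229 and 313 units in littermates 1 to 4, 167, 61.7, 176 and 261 units in CLE 1 to 4, and 249.0, 218, 204 and 226 units in Merkel het CLE 1 to 4. Littermate 3 lay apart from the other 3 littermates and within the range of the diseased mice, so both diseased groups overlapped the littermates. CLE 2 had the lowest value, 1.16 times its background threshold on 25 counts. The log2 difference from littermates was -0.99 ± 0.37 in CLE and -0.39 ± 0.37 in Merkel het CLE (SE, n = 4 per group), with limma adjusted p of 0.13 and 0.487. The former passed with array weights (adjusted p = 0.0311) and was -0.58 without CLE 2 (adjusted p = 0.259). The latter was -0.73 with median centring.

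**Figure D2:**
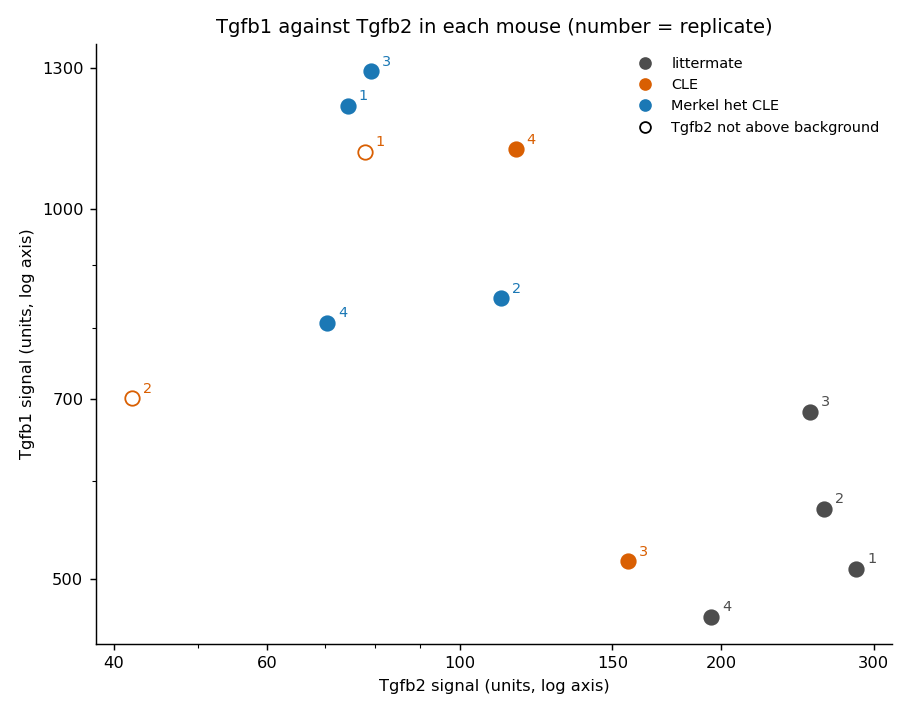
Tgfb1 signal (vertical) against Tgfb2 signal (horizontal) in each mouse, in units on log axes; numbers are replicates and open points had Tgfb2 below background. The 4 littermates sit at the lower right (Tgfb2 at 195 units or more), 7 diseased mice at the upper left, and CLE 3 (Tgfb1 at 517 and Tgfb2 at 156 units) between.

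The ratio of Tgfb1 to Tgfb2 signal within a library does not depend on the lane factor. Because probes differ in efficiency, the ratio has no meaning as a ratio of molecules, and only its difference between libraries is read. It was 1.78, 2.17, 2.70 and 2.39 in littermates 1 to 4. It was 3.30 and 9.63 in CLE 3 and 4, and 16.3, 7.58, 16.4 and 11.5 in Merkel het CLE 1 to 4. In CLE 1 and 2, where Tgfb2 was below background, it was at least 10.5 and 13.2 with Tgfb2 set at the threshold. Each diseased mouse lay above each littermate, and CLE 3 was the closest to them. The geometric mean was 2.23 in littermates and 12.3 in Merkel het CLE. The ratio was formed after the values were seen and was not tested.

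Of the receptors, Tgfbr2, which binds the ligand, read 523, 538, 669 and 549 units in littermates 1 to 4. It read 701, 597, 676 and 861 units in CLE 1 to 4, and 869, 733, 921 and 487 units in Merkel het CLE 1 to 4. CLE 2 and Merkel het CLE 4 lay within or below the littermate range, and the other 6 diseased mice lay above it. The log2 difference from littermates was 0.31 ± 0.23 in CLE and 0.37 ± 0.23 in Merkel het CLE (SE, n = 4 per group), with limma adjusted p of 0.366 and 0.295. With centring on the library medians the CLE value turned to -0.17, and the Merkel het CLE value passed with array weights (adjusted p = 0.0432). With centring the latter was 0.028, and without Merkel het CLE 4 it was 0.56.

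Tgfbr1, the kinase that phosphorylates Smad3, ran from 517 to 564 units in littermates, from 373 to 673 units in CLE and from 466 to 638 units in Merkel het CLE. Its littermate values were the tightest of any member, with a mean of 537 ± 19.8 units (SD, n = 4), and lay inside the range of either diseased group. The log2 differences were 0.06 ± 0.22 and 0.05 ± 0.22 (SE), with 95% intervals of -0.41 to 0.53 and -0.42 to 0.52. Each turned negative with rescaling on the reference genes, median centring or quantile normalization, so no direction is given.

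Smad3, the mediator of TGF-beta and activin receptors, read 693, 598, 624 and 704 units in littermates 1 to 4. It read 228, 375, 415 and 391 units in CLE 1 to 4, and 491, 533, 363 and 406 units in Merkel het CLE 1 to 4. The 8 diseased mice lay below the 4 littermates, as for Tgfb2, and CLE 1 stood well below the other 3 CLE mice. The log2 difference from littermates was -0.93 ± 0.23 in CLE, 1.90-fold lower, and -0.56 ± 0.23 in Merkel het CLE, 1.47-fold lower (SE, n = 4 per group). The 95% intervals were -1.42 to -0.43 and -1.06 to -0.06. Neither passed, with limma adjusted p of 0.111 and 0.12. The CLE value passed with array weights (adjusted p = 0.0163) and without CLE 3 (0.0136), and the Merkel het CLE value with array weights (0.015) and with only these 2 groups in the fit (0.0379). With median centring the values were -1.40 and -0.90, and neither passed (adjusted p = 0.0721 and 0.108).

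Smad5, which carries bone morphogenetic protein signals, ran from 1518 to 1759 units in littermates. It read 1018, 1570, 1792 and 1527 units in CLE 1 to 4 and ran from 1053 to 1483 units in Merkel het CLE. The Merkel het CLE mice lay below all littermates, and the CLE mice overlapped them. The log2 differences were -0.20 ± 0.20 and -0.34 ± 0.20 (SE, n = 4 per group), with limma adjusted p of 0.508 and 0.275. The CLE value was -0.030 without CLE 1 and -0.30 without CLE 3, and with median centring both were -0.67. The ratio of Smad5 to Smad3 signal, which is free of the lane factor, was 2.19 to 2.82 in littermates, 3.91 to 4.46 in CLE and 2.53 to 3.65 in Merkel het CLE. The CLE values thus lay above those of both other groups, and the Merkel het CLE values overlapped the littermates. This ratio was also formed after the values were seen and was not tested.

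Tgfbi overlapped between all groups. It ran from 3625 to 5188 units in littermates, from 4272 to 6102 units in CLE and from 3016 to 6747 units in Merkel het CLE. The log2 differences from littermates were 0.20 ± 0.25 and 0.01 ± 0.25 (SE, n = 4 per group), with 95% intervals of -0.35 to 0.75 and -0.54 to 0.56. With centring on the library medians they were -0.28 and -0.33, so no direction is given.

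**Figure D3:**
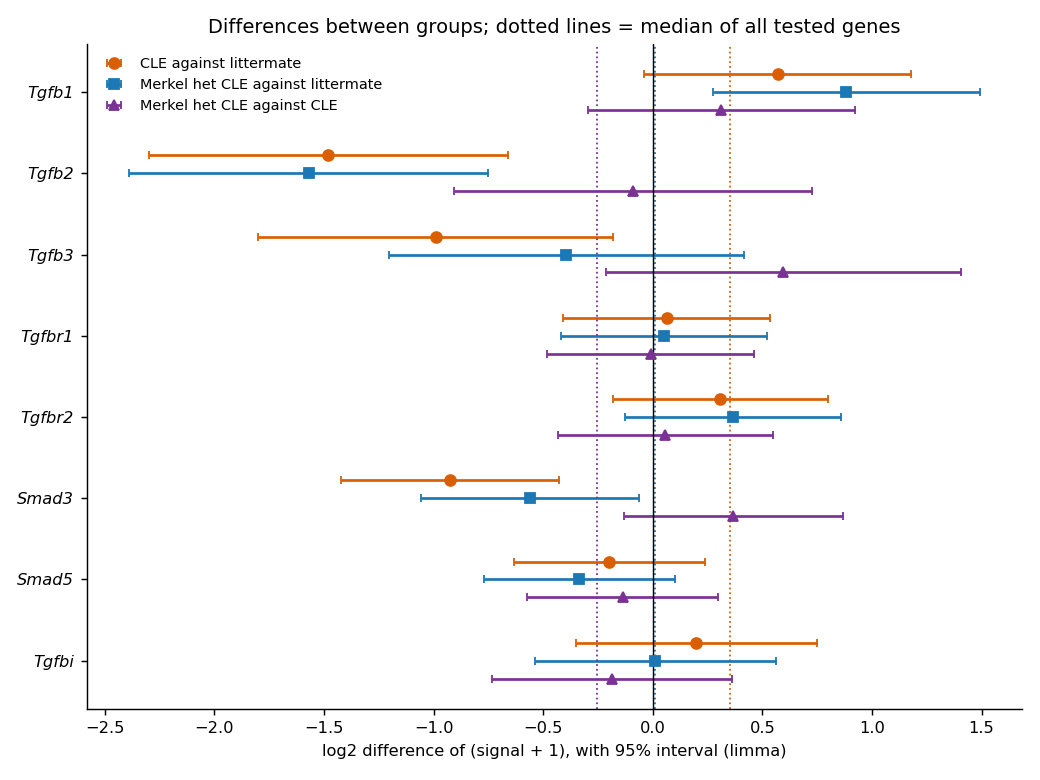
Log2 difference of (signal + 1) for each member in 3 comparisons, with its 95% interval from limma; dotted lines mark the median of all 451 tested genes in the same comparison. Tgfb2 lies at -1.48 and -1.57 against littermates and at -0.09 between the disease groups, and the Tgfb1 estimates are on the positive side in all 3.

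Counted together, 0 of 8 members passed between CLE and littermates by limma, where 0% of all 451 genes passed. At an unadjusted p under 0.05 there were 3 of 8 (Tgfb2, Tgfb3 and Smad3, each lower), against 26.6% of all genes, and 29 genes, or 6.43%, were lower at that level. The 2 groups did not overlap in 2 of 8 members, against 11.1% of all genes. The members' median difference was -0.07, while the median of all genes was 0.35 and 72.5% of them had positive estimates. Between Merkel het CLE and littermates 1 of 8 passed, against 11.8% of all genes, and 4 of 8 did not overlap, against 30.6%. The 1 that passed was lower, as were 6.87% of all genes, and 3 of 8 had an unadjusted p under 0.05, against 29.7%. The members' median there was -0.16 and that of all genes 0.01. These contrasts were in view when the members were listed, so nothing is read from the counts.

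Merkel het CLE skin was also compared with CLE skin. These groups differ in the Merkel cell genotype, but not in that alone. Only the CLE mice were given as of the parental strain. All CLE mice were TLR9 ko/ko, whereas Merkel het CLE 1 and 2 were wt/wt. Disease scores and title numbers differed as well, so the parts of these in any difference cannot be told apart. Of the 8 members 0 passed by limma, where 0.222% of genes passed, 0 had an unadjusted p under 0.05, where 19.3% did, and 0 separated the groups, where 7.98% did. The largest estimates were those of Tgfb3 at 0.60 ± 0.37 and Smad3 at 0.37 ± 0.23 (SE, n = 4 per group), with 95% intervals of -0.21 to 1.40 and -0.13 to 0.87. Tgfb1 stood at 0.31 ± 0.28, with an interval of -0.30 to 0.92, and Tgfb2 at -0.09 ± 0.38, with an interval of -0.91 to 0.73. The Tgfb2 interval thus spans differences in either direction, and 2 of the 4 CLE values were below background. After background subtraction the Tgfb2 estimate turned to 0.70, with an adjusted p of 0.743. Single mice moved the others: Tgfb3 was 0.18 without CLE 2, Smad3 0.17 without CLE 1, and Tgfb1 0.091 without CLE 3 and 0.20 without Merkel het CLE 3.

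Genotype and title number divided the groups further. Merkel het CLE 1 and 2 and littermates 1 and 2 share the number 23 in their titles, which no source used here explains. Among these 4 mice the log2 difference was -1.58 for Tgfb2, 0.91 for Tgfb1 and -0.33 for Smad3. Among TLR9 ko/ko mice, 2 against 3, the same differences were -1.64, 0.85 and -0.74. For CLE against the 3 ko/ko littermates they were -1.41, 0.53 and -0.90. Within the littermates, the pair carrying K14Cre differed from the pair without it by -0.30 for Tgfb2, 0.07 for Tgfb1 and 0.04 for Smad3, with 2 mice on each side and no test.

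Among the 8 diseased mice, a slope with the skin disease score was fitted with group as a term. Of the 8 members 0 passed by limma, as did 0% of all genes, and 0 had an unadjusted p under 0.05, where 4.43% did. Tgfb1 had a slope of 0.42 ± 0.20 log2 units per score unit (SE, 8 mice) and Tgfb3 of 0.53 ± 0.28, each with a limma adjusted p of 0.718. The 95% intervals were -0.04 to 0.89 and -0.11 to 1.17, and the median slope of all genes was 0.14. The 2 CLE mice with a score of 1 had the lowest Tgfb1 values of the 8, at 701 and 517 units. With median centring the slopes of Tgfb1 and Tgfb3 were 0.18 and 0.28, and that of Tgfb3 was 0.21 without CLE 2 and 0.82 without CLE 3. The Tgfb2 slope was 0.07 ± 0.33 and turned to -0.18 with median centring.

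**Figure D4:**
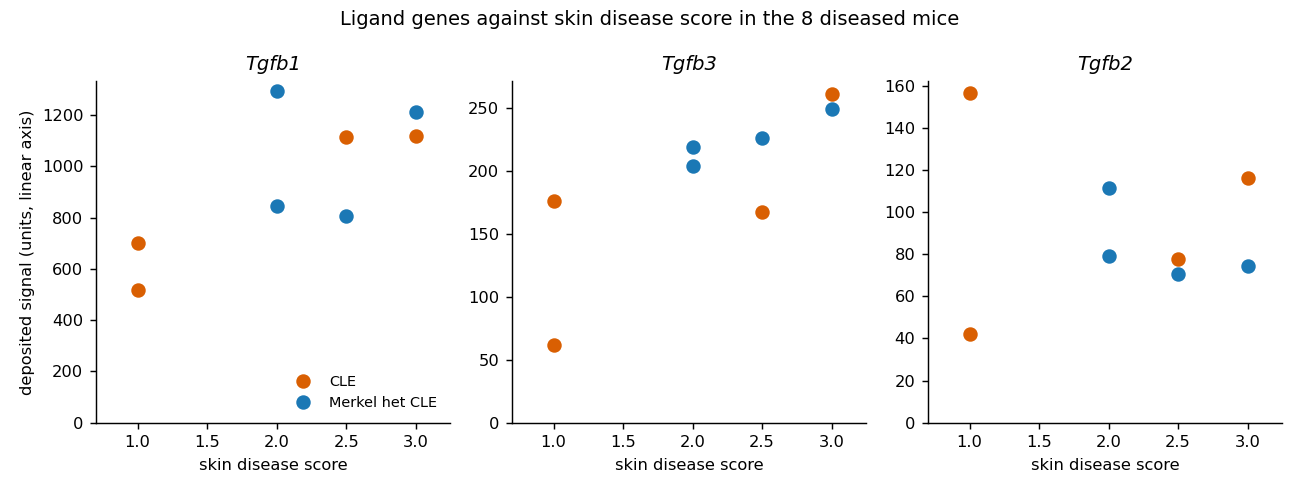
Signal of the 3 ligand genes (units, linear axes from 0) against the skin disease score in the 4 CLE and 4 Merkel het CLE mice, 1 point per mouse. Tgfb1 is lowest in the 2 mice with a score of 1 (701 and 517 units), and Tgfb2 at that score spans 42.0 to 156 units.

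Skin RNA is a mixture, so for every member fewer cells of a type and less RNA per cell cannot be told apart. Beside the higher Tgfb1 values, the macrophage and monocyte markers (6 of 8 on the panel, Marco never above background) summed to 857 to 1318 units in littermates, 792 to 8190 in CLE and 1242 to 4974 in Merkel het CLE. All 5 tested members had positive differences in both comparisons and 0 passed. Neutrophil markers (5 of 6 on the panel) summed to 201 to 597 units in littermates, 1456 to 237489 in CLE and 9947 to 61309 in Merkel het CLE, and 4 of 5 were higher in the latter than in littermates by limma at an adjusted p under 0.05, where 4.88% of all genes were higher. These were S100a8, S100a9, Cxcr2 and Csf3r, with log2 differences of 6.62, 7.11, 4.10 and 2.88. Itgam, at 1.42, did not pass. The markers thus differed widely in their rise, and their sum is not a measure of the number of neutrophils. T cell markers (7 of 8 on the panel) summed to 432 to 659, 473 to 801 and 261 to 429 units, with 3 of 6 tested lower in Merkel het CLE than in littermates, where 6.87% of all genes were lower. These were Cd3e, Cd3d and Cd247, with differences of -1.95, -1.25 and -1.43. The other 3 did not pass and were mixed in direction, with Cd2 at -0.54, Cd4 at 0.30 and Cd5 at 0.70. Fibroblast markers (4 of 7 on the panel) summed to 2805 to 3681, 2624 to 5959 and 4007 to 11335 units, and epithelial markers to 7772 to 11179, 7582 to 12355 and 5656 to 10928 units. Endothelial markers (5 of 6 on the panel) summed to 738 to 837, 341 to 1020 and 609 to 2008 units, and the B cell markers Cd79a and Pax5 were never above background. Of 2 mast cell markers tested Fcer1a was higher in Merkel het CLE (2.22, limma adjusted p = 0.0463), where 4.88% of all genes were higher. Kit, at 0.79, did not pass. Of 4 NK cell markers Prf1 was lower (-1.85, adjusted p = 0.0114), where 6.87% of all genes were lower. Prf1 was above background in only 5 of 12 libraries. Klrk1, Klrd1 and Gzmb, at -0.55, -0.10 and 0.19, did not pass, and neither did any of 3 dendritic and Langerhans cell markers. In neither the fibroblast nor the epithelial list did a gene pass against littermates. The part of each cell type in the TGF-beta values was not tested.

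The tested genes most like each member were found by Pearson's r of log2(value + 1) over the 12 libraries, which share their lane factors and groups. For Tgfb1 these were Msr1, a macrophage scavenger receptor above background in 8 of 12 libraries (r = 0.96, and 0.93 on deviations from the group means), and Fcgr2b, the inhibitory Fc receptor (0.95 and 0.93). For Tgfb2 the closest was Ifngr2, a chain of the interferon-gamma receptor (0.94 and 0.81), and for Smad3 it was Ube2l3, a ubiquitin-conjugating enzyme (0.89 and 0.79). Ifngr2 ran from 604 to 858 units in littermates, 341 to 612 in CLE and 301 to 506 in Merkel het CLE. The second for Tgfb2 was a probe for NM_001001303.1, an accession left unnamed (0.88 and 0.74), and the second for Smad3 was Psmd7, a proteasome subunit (0.87 and 0.82). For Tgfbr2 they were the complement genes Serping1 (0.95 and 0.95) and C1qb (0.92 and 0.89), and for Tgfb3 the lipid-presenting molecule Cd1d1 (0.82 and 0.64) and the transcription factor Tcf4 (0.78 and 0.75). For Tgfbr1 they were Cxcl13 (0.88 and 0.91) and Nox4 (0.80 and 0.80), for Smad5 Ptger4 (0.89 and 0.86) and Bcl2 (0.83 and 0.79), and for Tgfbi Ifngr1 (0.80 and 0.81) and Cx3cr1 (0.78 and 0.79). The ligand and receptor genes thus had different nearest genes.

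Other genes of the pathway were taken from 5 lists of 65 genes, of which 18 besides the members were on the panel and 16 were tested. Against littermates 0 of the 16 passed in CLE, while in Merkel het CLE 3 fell, 0 rose and 13 did not pass. Of all genes 0% passed in CLE, and 6.87% were lower and 4.88% higher in Merkel het CLE. The median difference of the 16 was -0.12 in CLE and -0.35 in Merkel het CLE, beside 0.35 and 0.01 for all genes. Of the list of TGF-beta-responsive genes 7 were tested, and Foxp3 and Il9 were too low. Within it, Ikzf2, the transcription factor Helios, fell by 1.99 ± 0.46 in Merkel het CLE (SE, n = 4 per group; limma adjusted p = 0.0261). It ran from 749 to 898 units in littermates and from 121 to 267 in Merkel het CLE. Pdgfb, a platelet-derived growth factor chain, fell by 0.90 ± 0.19 (adjusted p = 0.0246). Of the 5 that did not pass, Ahr, the aryl hydrocarbon receptor, was nearest to the threshold, with a difference of -1.14 ± 0.35 and an adjusted p of 0.052. The chemokine receptor gene Cxcr4 stood at 1.68 ± 0.56 (adjusted p = 0.0657). Fn1, the matrix protein fibronectin, which is also on the fibroblast list, stood at 1.26 ± 0.43 (adjusted p = 0.0717). Cdkn1a stood at -0.61 ± 0.25 (adjusted p = 0.115). Ctla4, above background in 8 of 12 libraries, stood at -0.73 ± 0.38 (adjusted p = 0.22). Ahr, Fn1 and Cdkn1a did not overlap the littermates, as was so for 30.6% of all genes, and Cxcr4 and Ctla4 did. In CLE, Cxcr4 and Pdgfb had the smallest p of this list, with differences of 1.71 ± 0.56 and -0.53 ± 0.19 and an adjusted p of 0.13 each.

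Of the kinase route that TGF-beta also activates, 5 genes were tested and 1 fell in Merkel het CLE: Mapk14, the p38 alpha kinase, by 0.73 ± 0.20 (SE; limma adjusted p = 0.0399), where 6.87% of all genes were lower. In CLE none of these 5 passed, and Mapk14 and Mapkapk2, a kinase that p38 activates, stood at -0.30 ± 0.20 and -0.25 ± 0.19. Among 3 Smad partners none passed. Runx1 and Runx3, transcription factors that bind Smads, had differences of 1.34 ± 0.40 and -1.18 ± 0.39 in Merkel het CLE (adjusted p = 0.052 and 0.0635). In CLE, Runx3 and Runx1 stood at -0.93 ± 0.39 and 0.28 ± 0.40. Itgb1, an integrin chain that pairs with latent TGF-beta-binding chains, was the 1 gene of the activation list on the panel, at -0.05 ± 0.21 in CLE and 0.43 ± 0.21 in Merkel het CLE. No other ligand or receptor of the superfamily from the list was on the panel. Between the disease groups 0 of the 16 passed, with a median difference of -0.23, and 0 passed for the score slope, with a median of -0.17.

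**Figure D5:**
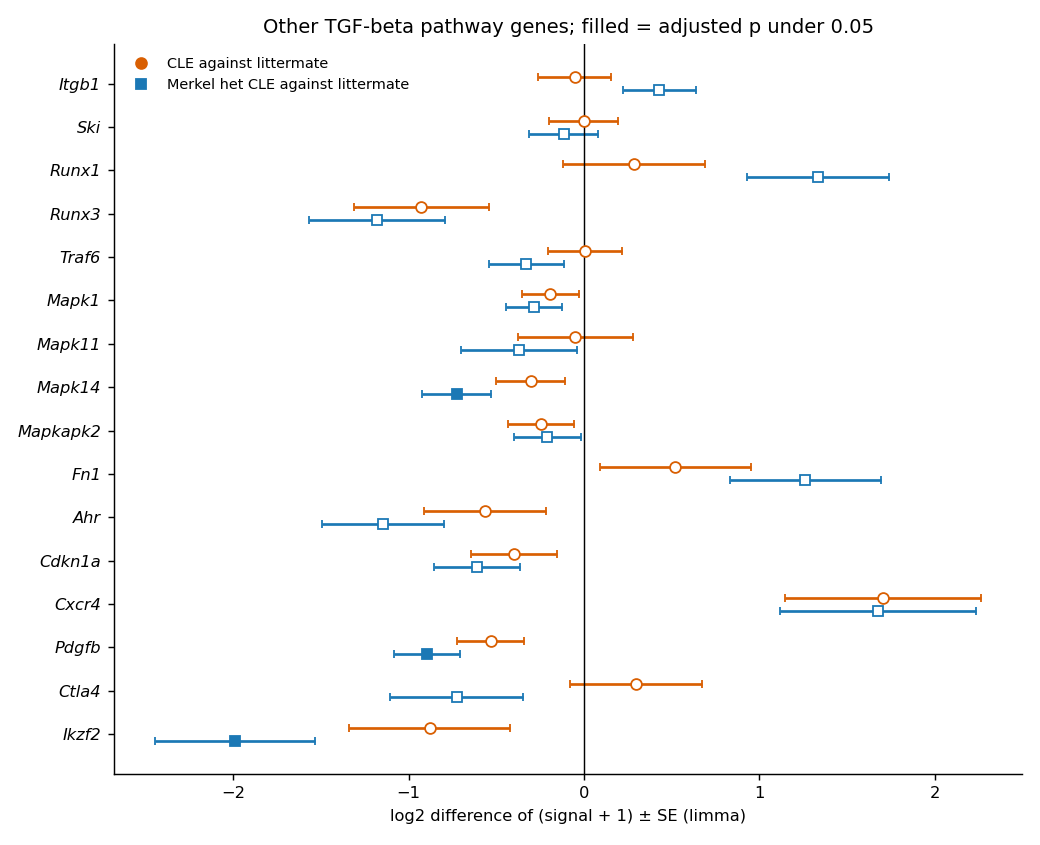
Log2 difference of (signal + 1) ± SE for the 16 tested pathway genes that are not members, in CLE (circles) and Merkel het CLE (squares) against littermates. Filled symbols passed the adjusted threshold of 0.05: Mapk14, Pdgfb and Ikzf2, each lower in Merkel het CLE.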

How the data were processed

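Skin RNA of 12 mice, purified on Qiagen columns per the labels' protocols, was counted on a NanoString immunology panel. The deposited signal of a gene probe is a barcode count times a single factor for each lane, a property read from the spacing of the values. Gene values above 1 lay within 0.02 units of a multiple of that step in 100% of cases, and 3 and 2 values lay at 1 in Merkel het CLE 1 and 3. No source used here says how the authors set that factor. The 14 control rows (6 positive, 8 negative) hold raw counts.

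Probes were named through RefSeq accessions (549 of 561). A gene was tested if, in at least 4 of 12 libraries, it lay above the negative controls of the same lane (their mean and 2 SD, times the factor). The 12 reference genes were not tested, which left 451. Groups follow the labels, and replicate numbers are in accession order. Each library is labelled as a separate mouse. Differences were fitted on log2(value + 1) with limma 3.58.1 (R 4.3.3), all 12 libraries in 1 fit with a variance trend, and p-values were adjusted by Benjamini-Hochberg over the 451 genes, and 0.05 was the threshold. The ± of a log2 difference is its moderated standard error. Background was not subtracted in the main fit, so differences of low genes may be understated. With subtraction the Tgfb2 difference from littermates went from -1.48 to -2.36 in CLE and from -1.57 to -1.66 in Merkel het CLE. The code was tested on simulated data. Figures were made with Python 3.11.15 and matplotlib 3.10.9.

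The members, lists and tests were chosen with earlier results of these data known. Named genes are the 8 members, for each other list up to 4 genes past the threshold or else the 2 with the smallest p, and the 2 genes most like each member. From marker lists with no gene past the threshold, and from lists outside the comparisons with littermates, none were named. The epithelial markers and the T cell, neutrophil, mast cell and NK cell markers that did not pass were named after their values were seen. So were genes close to the threshold and the TGF-beta-responsive genes that did not pass. Alternatives covered scaling, background, filters, pseudocount, variance model, subsets of mice and leaving out each library. A listed pathway gene is not reported here, and the counts of its list leave it out.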

Additional observations from a re-analysis of the deposited data

Results flagged for a closer look

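Within groups of 4 mice, 24 sets of member values were examined for a mouse far from the others, and chance alone flags about 1 in 20 such sets. Tgfb3 in littermate 3, at 229 units, lay far below the other 3 littermates at 313 to 332 units. Smad3 in CLE 1, at 228 units, lay far below the other 3 CLE mice at 375 to 415 units. CLE 1 also had the largest lane factor of the 12 libraries. Neither gap was followed up, and its cause was not tested.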

How the results depend on the processing

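The number of the 8 members past the threshold was 0 between CLE and littermates. It became 1 with quantile normalization and 3 with array weights, and ran from 0 to 3 when 1 library was left out (3 without CLE 3). Between Merkel het CLE and littermates it was 1. It became 2 with quantile normalization, 4 with array weights, 3 with only the 2 groups in the fit, and 0 after background subtraction, among genes above background in all 12 libraries (where Tgfb2 is not tested), among TLR9 ko/ko mice, without K14Cre+ littermates and, chosen after seeing the data, without littermate 2 and CLE 1. It ran from 0 to 2 when 1 library was left out. The number of all genes past the threshold ran from 0 to 138 (0 as reported) for CLE, from 0 to 185 (53 as reported) for Merkel het CLE and from 0 to 28 (1 as reported) between the disease groups. For CLE, of 451 genes, it was 9 with quantile normalization, 108 with array weights and 138 without CLE 3. For Merkel het CLE it was 80 with quantile normalization, 185 with array weights and 121 with only the 2 groups in the fit. Among TLR9 ko/ko mice and without K14Cre+ littermates it was 0. For Merkel het CLE the members' count and the panel count did not always move together. The panel count was 85 with median centring, 31 with no filter on low values and 34 with a pseudocount of 16. In these settings the members' count stayed at 1. With the title number as a random replicate block (consensus correlation 0.213) the members' counts were 0, 1 and 0, with Tgfb2 at -1.52 and -1.58 against littermates, and the block changed no call of a member. The direction of Tgfb1, Tgfb2, Tgfb3, Smad3 and Smad5 against littermates was kept in all alternatives run.

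Some estimates that did not pass turned sign, and not only those near 0. Among them were Tgfbr2 and Tgfbi in CLE, at 0.31 and 0.20 against littermates in the main fit. Median centring lowers every difference from littermates by 0.47 in CLE and 0.34 in Merkel het CLE, so its sign turns against littermates follow from that step. For the other sign turns the cause was not tested. For CLE against littermates, Tgfbr1 was -0.024 with reference-gene rescaling, -0.41 with median centring, -0.30 with quantile normalization and -0.092 with array weights, and ran from -0.025 to 0.26 with 1 library left out. Tgfbr2 was -0.17 with median centring, and Tgfbi -0.28 there and -0.21 with quantile normalization. For Merkel het CLE against littermates, with reference-gene rescaling, median centring and quantile normalization in turn, Tgfbr1 was -0.077, -0.29 and -0.073 and Tgfbi -0.12, -0.33 and -0.15. Tgfbi was -0.024 among TLR9 ko/ko mice and -0.0024 without K14Cre+ littermates. With 1 library left out Tgfbr1 ran from -0.013 to 0.14 and Tgfbi from -0.20 to 0.19. Between the disease groups, Tgfb2 was 0.046 with median centring, 0.35 with quantile normalization, 0.70 after background subtraction and 0.20 with array weights, and Tgfbr1 was 0.13, 0.23, 0.041 and 0.20. Quantile normalization gave Smad5 0.20 and Tgfbi 0.062. Tgfbr2 was -0.068 among TLR9 ko/ko mice, and Tgfbr1 was 0.014 with the replicate block and 0.013 without littermate 2 and CLE 1. With 1 library left out Tgfb2 ran from -0.44 to 0.18, Tgfbr1 from -0.21 to 0.077 and Tgfbr2 from -0.053 to 0.25. For the score slope, median centring gave Tgfb2 -0.18, Tgfbr1 -0.10 and Tgfbr2 -0.11, and quantile normalization gave Tgfb2 -0.14. Without CLE 1, Smad3 was 0.020 and Smad5 0.0051. With 1 library left out Tgfb2 ran from -0.33 to 0.43, Tgfbr1 from -0.043 to 0.31, Smad3 from -0.32 to 0.020 and Smad5 from -0.24 to 0.0051.

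Tgfb2 in CLE 1 and 2 lies below background, which limits its fold there. A count-model test was planned and not run. The control rows hold raw counts beside scaled gene rows, and a check that turns whole columns back into counts failed for most libraries.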
